A study of Mus musculus with 17 samples.

Results

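The insulin-like growth factor (IGF) axis was examined in the fat that surrounds the mouse prostate and described through 9 genes: the ligand gene Igf1, the receptor genes Igf1r and Igf2r, and the binding protein genes Igfbp2, Igfbp3, Igfbp4, Igfbp5, Igfbp6 and Igfbp7. They were taken by name, each through the probe set with a single gene symbol and the highest mean over all arrays, and all 9 were measured among 22180 genes. RNA of this periprostatic fat came from 17 male C57BL/6J mice killed at 25 weeks of age, each measured on an Affymetrix Mouse Gene 2.0 ST array of its own. The restricted group (HFD_CR, n = 5) ate a high-fat diet with 60 kcal% fat from 6 weeks of age, without limit for 12 weeks and then for 7 weeks at 70% of the amount eaten by the unrestricted high-fat group, a restriction of 30%. The high-fat group (HFD, n = 6) ate the same diet without limit throughout, and the third, LFD (n = 6), had unlimited food with 10 kcal% fat. The labels name no engineered allele in any group, and the sources used here give neither the hour at which tissue was taken nor whether mice had been fed.

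IGF1 is a growth-promoting hormone made by the liver and, locally, by many tissues, including fat, where growth hormone acting through its receptor drives its transcription. It signals through IGF1R, a tyrosine kinase that passes the signal to the insulin receptor substrates, phosphoinositide 3-kinase and AKT. IGF2R, also the cation-independent mannose 6-phosphate receptor, has no kinase: it carries newly made lysosomal enzymes to the lysosome and takes up IGF2 for breakdown. The IGF binding proteins hold IGFs in the extracellular fluid, lengthen their life and control their access to the receptor, and proteases that cut the binding proteins set the IGFs free.

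The promoters of the pair of members with the clearest differences, Igf2r and Igfbp4, are shown first, each as the 250 bases before the start of the gene. RefSeq promoter windows on GRCm38.p6 matched 9 of 9 members, with 10 windows in all since Igfbp2 had more than 1. The Igf2r window lies at chr17:12769707-12769956 on the minus strand and the Igfbp4 window at chr11:99040994-99041243 on the plus strand. Both are written 5′ to 3′ in lower case, with CACGTG, the E-box core read by helix-loop-helix factors such as USF, MYC and TFEB, in capitals for Igf2r, and TATAAA, the core promoter box, in capitals for Igfbp4.
Igf2r: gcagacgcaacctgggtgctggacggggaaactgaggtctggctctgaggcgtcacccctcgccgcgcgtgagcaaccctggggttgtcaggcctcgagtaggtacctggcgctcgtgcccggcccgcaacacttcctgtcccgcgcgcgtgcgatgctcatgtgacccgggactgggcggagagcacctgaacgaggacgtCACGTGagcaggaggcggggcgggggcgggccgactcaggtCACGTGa
Igfbp4: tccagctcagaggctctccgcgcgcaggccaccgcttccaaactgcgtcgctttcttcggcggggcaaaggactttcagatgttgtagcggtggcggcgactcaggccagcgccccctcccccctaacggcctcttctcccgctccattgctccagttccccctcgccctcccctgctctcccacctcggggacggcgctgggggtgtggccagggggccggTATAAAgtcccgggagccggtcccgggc
Both strands were searched. CACGTG stood in the Igf2r window at 2 places, 48 to 43 and 7 to 2 bases before the start, and both copies lay within the longer run TCACGTGA. Of 32851 windows of this length, 6.02% held CACGTG and 0.429% held at least 2 copies, while 0.785% held TCACGTGA and 0.0335% held at least 2. Of the members, the first Igfbp2 window also held 1 CACGTG. The Igf2r window had a GC content of 69.2% and 27 CpG dinucleotides, against medians of 52.4% and 6 over all windows. In the Igfbp4 window TATAAA stood 28 to 23 bases before the start, in a sequence with a GC content of 69.2%. TATAAA was found in 12.4% of all windows, and of the other members the Igfbp6 window held it, 148 to 143 bases before the start. Another motif, GGGCGG, the Sp1 box, was in 32.7% of windows and in windows of 4 members, with 3 copies in that of Igf2r, 1 of them starting 75 bases before the start. These matches are descriptions of letters and not of bound sites.

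All values are the authors' log2 array signals, and differences are log2 differences ± SE from a limma fit over 17 arrays, with p-values adjusted by the Benjamini-Hochberg method over 22180 genes. Where 3 values stand for a group, they are its lowest, median and highest mouse. A gene is said to have risen or fallen where its adjusted p was under 0.05. The number of arrays limits the precision, and in pieces of whole tissue fewer cells of a type and less RNA per cell cannot be told apart. Array medians were 7.03 to 7.15. Among the members, Igf1, Igfbp4, Igfbp5, Igfbp6 and Igfbp7 had mean signals of 11.4 or more, with Igfbp7 at 13.0 close to the top of the scale, where the highest value of any probe set was 14.4. Igfbp2 averaged 7.39 and came within 0.05 of its array's median in HFD_CR mouse 5, so that it was not shown to be above background.

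Some arrays carried transcripts of other tissues. The mean of 8 skeletal muscle genes stood above the median array by 2.54 in HFD_CR mouse 2, 1.11 in HFD mouse 6, 3.45 in LFD mouse 2 and 2.37 in LFD mouse 3. A list of 7 prostate and accessory gland genes stood 1.07 above in HFD mouse 3 and 2.49 above in LFD mouse 3. A list of 3 urothelium genes stood 1.72 above in LFD mouse 3, and 5 male germ cell genes stood 2.26 above in HFD_CR mouse 1. Genes of thermogenic adipocytes, themselves fat cells, stood 2.76 and 2.15 above in LFD mice 3 and 6, and 0.96 above in LFD mouse 1. They also differed between groups. Of 6 such genes, 3 fell in HFD against LFD (11.3% of all genes) and 4 fell in HFD_CR against LFD (3.28% of all genes). HFD_CR mouse 2, HFD mouse 3 and LFD mice 2 and 3 were left out together, and are called the 4 muscle or gland arrays, while HFD mouse 6 was kept there and left out on its own, which changed no member's call. The other arrays were also left out in turn. The tissue label was checked against 8 adipocyte markers, among them Adipoq and Plin1, whose mean was 12.29 to 12.70 over the 17 arrays.

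In HFD against LFD, Igf2r rose and no other member passed the test. Igf2r was thus 1 of 9 members called (11.1%), against 27.8% of all genes, 16.5% higher and 11.3% lower. In this comparison the share of called genes that was higher depended on the scaling: 3663 genes were higher and 2502 lower as deposited, and 3076 were higher and 3347 lower with each array centred on the median of the genes tested. The members' median difference was -0.10, against 0.00 over all genes, and 6 of 9 had values below 0. At an unadjusted p under 0.05 there were 3 of 9 members, against 36.6% of all genes. The groups did not overlap for 1 member, Igf2r, against 14.3% of all genes.

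In HFD_CR against HFD, Igf2r fell and Igfbp4 rose. These were 2 of 9 members (22.2%), against 19.0% of all genes, 7.69% higher and 11.3% lower. The median member differed by 0.21, and 5 of 9 members had an unadjusted p under 0.05, against 29.7% of all genes. Both called members were also those whose groups did not overlap, against 13.7% of all genes. In HFD_CR against LFD, Igf2r rose and Igf1 fell, again 2 of 9, against 9.08% of all genes, 5.80% higher and 3.28% lower. Here 4 of 9 members had an unadjusted p under 0.05, against 22.0% of all genes. The median member differed by 0.10, and the groups did not overlap for Igf2r alone, against 6.67% of all genes. The comparisons share mice, so the values of one are not independent of the others.

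**Figure D1:**
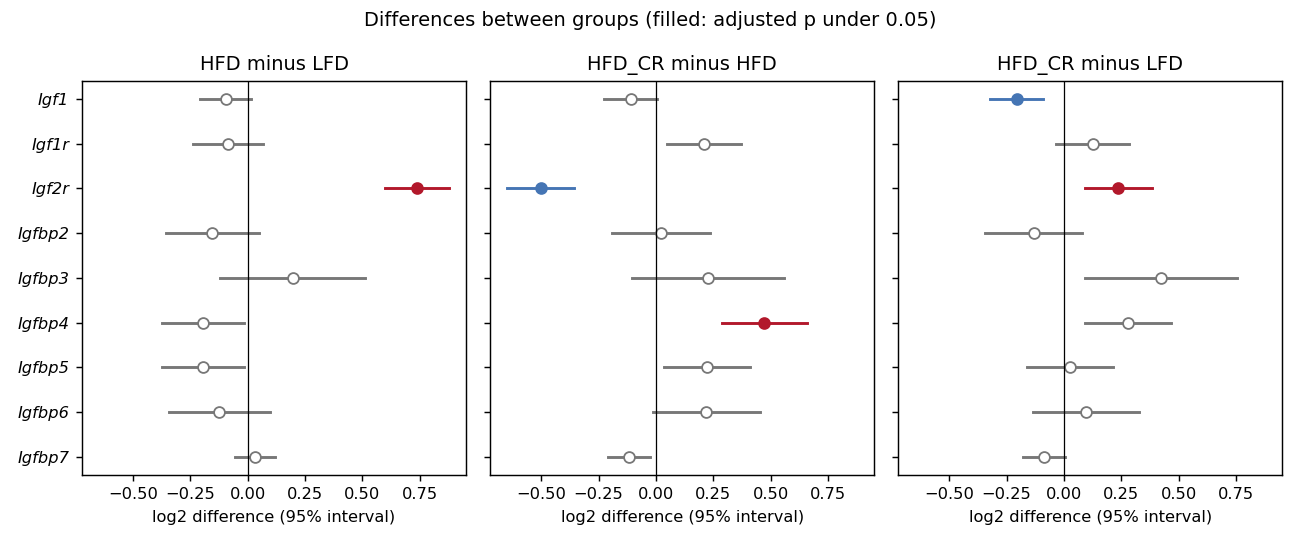
Log2 difference of each of the 9 genes, 1 panel per comparison (HFD minus LFD left, HFD_CR minus HFD in the middle, HFD_CR minus LFD right), with points for the estimate, filled where the adjusted p was under 0.05, and lines for the 95% confidence interval. Igf2r stands at 0.74, -0.50 and 0.24, and Igfbp4 at -0.20, 0.47 and 0.28.

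Igf1, the ligand (probe set 17236288), was at 11.90, 11.87, 11.86, 11.77 and 11.81 in HFD_CR mice 1 to 5. HFD mice measured 11.84, 11.96 and 12.03 as the lowest, median and highest, and LFD mice 11.89, 12.05 and 12.19. The order of the means was therefore HFD_CR, HFD and LFD, low to high, with overlap between neighbours, and 4 of 5 HFD_CR mice lay below every LFD mouse. Igf1 fell by 0.21 ± 0.05 in HFD_CR against LFD, a fold of 0.867 (95% confidence interval of the log2 difference -0.32 to -0.09, adjusted p = 0.0235). HFD_CR differed from HFD by -0.11 ± 0.05 (adjusted p = 0.194) and HFD from LFD by -0.10 ± 0.05 (adjusted p = 0.203), so that neither step passed on its own. The call against LFD was lost under 9 of 31 alternatives, among them with the mouse number as a block (-0.18, adjusted p = 0.0652), with only the arrays of these groups (adjusted p = 0.0524) and without any 1 of 4 arrays, HFD_CR mouse 4 (adjusted p = 0.0714) or 5 (0.0559) and LFD mouse 5 (0.0532) or 6 (0.0535), and without LFD mice 3 and 6 together, the thermogenic arrays, the difference was -0.16 (adjusted p = 0.107). Without the 4 muscle or gland arrays it was -0.25 (adjusted p = 0.0290).

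Across the 17 arrays the genes most like Igf1 were Angptl8, a secreted inhibitor of lipoprotein lipase made by fed fat and liver (Pearson's r = 0.87), Cyp51, the lanosterol demethylase of cholesterol synthesis (r = 0.87), and Sqle, squalene epoxidase of the same pathway (r = 0.87). Taken over deviations from the group means, r was 0.71 for Angptl8, 0.74 for Cyp51 and 0.71 for Sqle. Angptl8 had medians of 8.92 in HFD_CR, 9.77 in HFD and 10.7 in LFD, and Sqle had 7.98 in HFD_CR, 8.53 in HFD and 8.94 in LFD. The 3 were picked for this likeness among all genes, and the arrays share their mice, so r is a description.

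Igf2r (probe set 17340845) differed most of the 9 in HFD against LFD and in HFD_CR against HFD, while Igfbp3 and Igfbp4 had larger values in HFD_CR against LFD. HFD_CR mice 1 to 5 were at 10.06, 9.84, 9.90, 9.97 and 9.84. HFD mice were at 10.21, 10.42 and 10.62 as the lowest, median and highest, and LFD mice at 9.57, 9.67 and 9.82. Every HFD mouse thus lay above every HFD_CR mouse, and every HFD_CR mouse above every LFD mouse, the nearest values of HFD_CR and LFD being 9.84 and 9.82. Igf2r rose by 0.74 ± 0.07 in HFD against LFD, a 1.67-fold difference (95% confidence interval 1.51 to 1.84, adjusted p = 1.74e-07). It fell by 0.50 ± 0.07 in HFD_CR against HFD, a fold of 0.707 (0.639 to 0.782, adjusted p = 6.04e-05). HFD_CR lay above LFD by 0.24 ± 0.07, or 1.18-fold (1.06 to 1.30, adjusted p = 0.0400).

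The rise in HFD passed under all 31 alternatives run, with differences from 0.69 to 0.80. The fall in HFD_CR against HFD passed under 30 of 31, and lost its call in a test against a 1.2-fold difference (adjusted p = 0.0542). The difference of HFD_CR from LFD was less firm: it kept its sign but lost its call under 15 of 31 alternatives, among them leaving out any 1 of 10 arrays, namely HFD_CR mouse 1, 3 or 4, HFD mouse 3 or 4, or LFD mouse 1, 2, 4, 5 or 6. Without each of them the adjusted p lay between 0.0504 and 0.116, the highest being without HFD_CR mouse 1, the array high in germ cell genes (difference 0.20). Without the 4 muscle or gland arrays the difference was 0.29 (adjusted p = 0.0566).

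Macrophage markers moved with Igf2r. Of 8 markers (Cd68, Adgre1, Csf1r, Mrc1, Itgax, Trem2, Lyz2 and Ptprc), 8 rose in HFD against LFD, by 0.39 to 3.07, and 8 fell in HFD_CR against HFD, while 3 rose in HFD_CR against LFD. In these comparisons 16.5% of all genes rose, 11.3% fell and 5.80% rose, in that order. All 8 markers lay above the array median on every array, and their mean ran from 10.55 to 11.21 in HFD_CR, 11.57 to 11.99 in HFD and 10.00 to 10.54 in LFD. The highest HFD_CR mouse for both Igf2r and the markers was mouse 1. LFD mice did not rank alike. LFD mouse 3 was highest of its group for Igf2r (9.82) with a marker mean of 10.21. LFD mouse 5 was lowest for Igf2r (9.57) with a marker mean of 10.38. The 3 genes most like Igf2r over 17 arrays were Plxnb2, a receptor for semaphorins (r = 0.99), P2rx7, the ATP-gated channel of macrophages (r = 0.98), and Hk3, the hexokinase of myeloid cells (r = 0.98). Over deviations from the group means r was 0.86, 0.93 and 0.81. Part of the adipose progenitor and fibroblast list moved with Igf2r as well. Of its 8 markers, 5 rose in HFD against LFD (Pdgfra, Dcn, Col1a1, Col3a1 and Lum). In HFD_CR against HFD 3 fell (Col1a1, Col3a1 and Lum), and in HFD_CR against LFD 3 rose (Pdgfra, Dcn and Lum). Lum alone was called in every comparison, and Dpp4, Pi16 and Cd34 were called in none. The mean of the 8 ran from 10.94 to 11.36 in HFD_CR, 11.47 to 11.71 in HFD and 10.93 to 11.15 in LFD. The part of either cell type in the Igf2r difference was not tested.

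**Figure D2:**
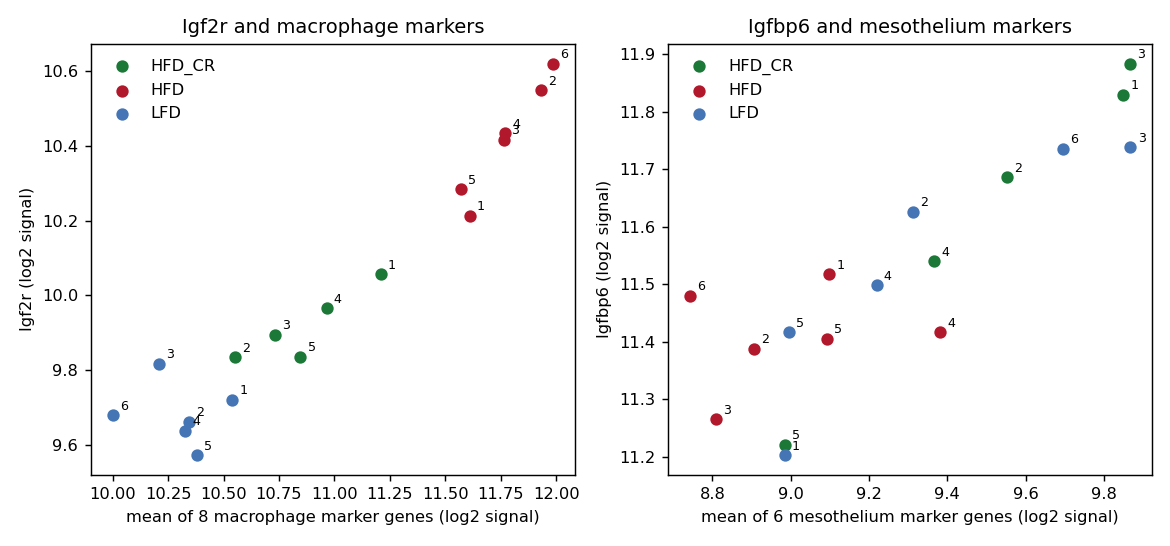
Each point is 1 mouse, with the mean log2 signal of a marker list on the horizontal axis and the log2 signal of a gene on the vertical axis. Igf2r is set against 8 macrophage markers, where HFD mice lie at the upper right with marker means of 11.57 to 11.99, and Igfbp6 against 6 mesothelium markers, where HFD_CR, HFD and LFD mice overlap.

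Airn, the imprinted noncoding RNA that overlaps Igf2r on the other strand and silences its paternal copy, had a probe set of its own. It measured 7.96, 7.97 and 8.09 in HFD_CR mice, 7.82, 8.11 and 8.23 in HFD mice, and 7.77, 7.80 and 7.89 in LFD mice, as the lowest, median and highest. Airn rose by 0.26 ± 0.06 in HFD against LFD (adjusted p = 0.00211), in the direction of Igf2r. It differed by -0.08 ± 0.06 in HFD_CR against HFD (adjusted p = 0.449), where Igf2r fell, and by 0.18 ± 0.06 in HFD_CR against LFD (adjusted p = 0.0715). Whether the Airn probes read that strand only is not stated in the sources used here. Slc22a2, an organic cation transporter gene of the same imprinted cluster, rose in HFD (0.34 ± 0.10, adjusted p = 0.0178) and in HFD_CR (0.51 ± 0.11, adjusted p = 0.00505) against LFD, and Mas1, next to Igf2r in the reference gene order, differed by at most 0.02.

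Igf1r (probe set 17479099), the signalling receptor, measured 9.29, 9.02, 9.26, 9.19 and 9.14 in HFD_CR mice 1 to 5, 8.79, 8.98 and 9.10 in HFD mice, and 8.82, 9.04 and 9.24 in LFD mice. HFD_CR mice sat high and HFD mice low, with HFD_CR mouse 2 inside the HFD range. The difference of HFD_CR from HFD was 0.21 ± 0.08 (95% confidence interval 0.05 to 0.37, adjusted p = 0.0642). It passed under 9 of 31 alternatives, among them without HFD_CR mouse 2, a muscle-rich array (0.25, adjusted p = 0.0378), HFD mouse 4 (0.24, 0.0464), LFD mouse 1 (0.21, 0.0399) or LFD mouse 3 (0.21, 0.0474), and without the 4 muscle or gland arrays (0.27, adjusted p = 0.0155). Against LFD, Igf1r differed by -0.08 ± 0.07 in HFD (adjusted p = 0.442) and by 0.12 ± 0.08 in HFD_CR (adjusted p = 0.371). The genes most like it were Smok4a (r = 0.85), Agbl5, a tubulin deglutamylase (r = 0.83), and Ccbe1, a factor of lymphatic growth (r = 0.81).

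**Figure D3:**
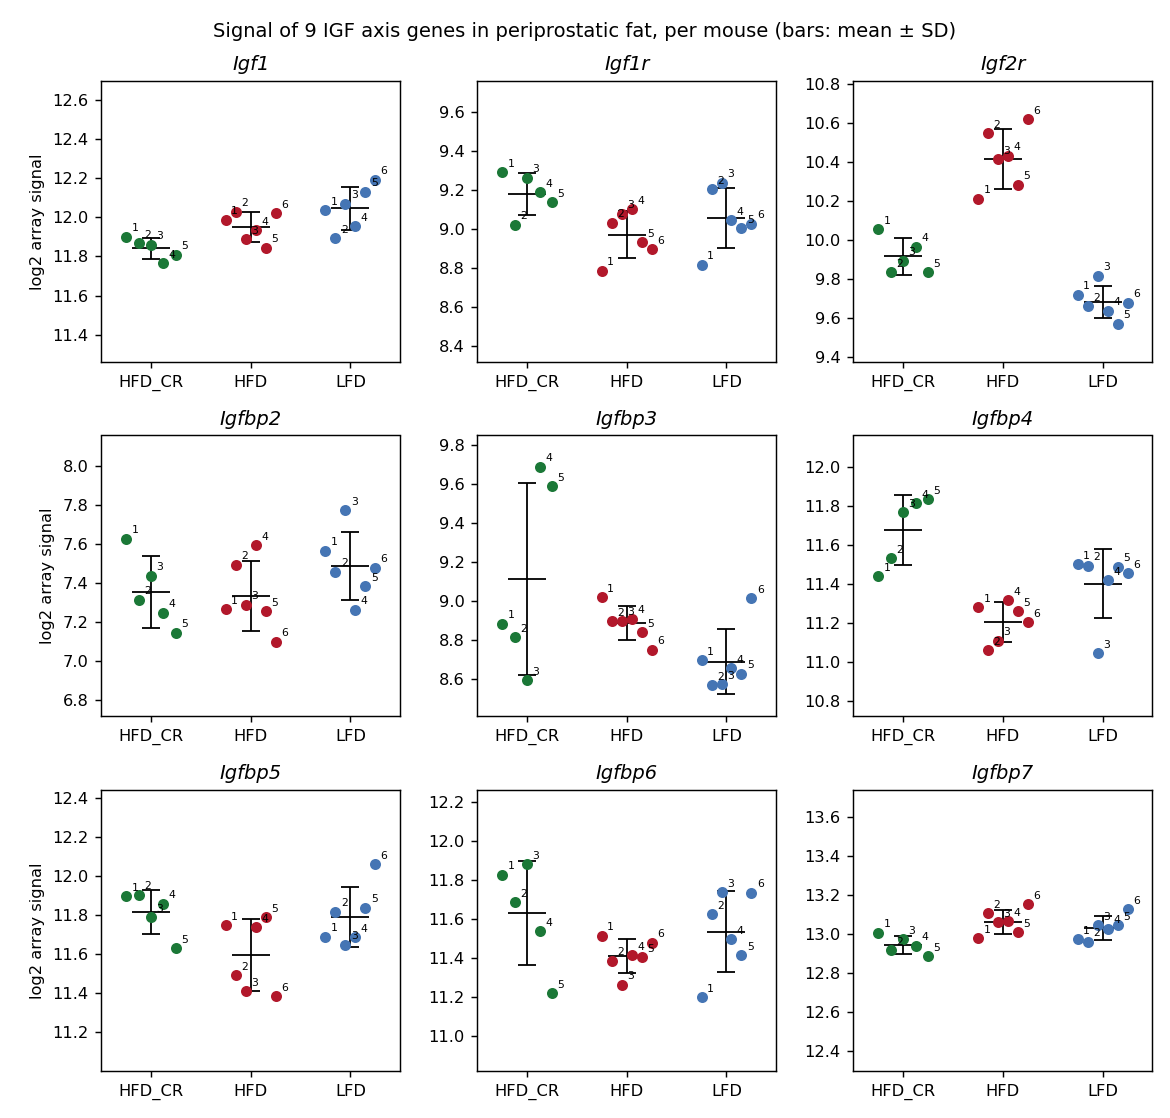
Log2 signal of each of the 9 genes in every mouse, with HFD_CR left, HFD in the middle and LFD right, 1 numbered point per mouse and black bars at the mean ± SD. Igf2r separates into 3 levels without overlap, Igfbp4 is above all HFD mice in every HFD_CR mouse, and Igfbp3 is spread widely in HFD_CR.

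Igfbp4 (probe set 17256264), which binds IGFs in the tissue, restrains their action and is cut by PAPP-A, was at 11.44, 11.53, 11.77, 11.81 and 11.83 in HFD_CR mice 1 to 5. HFD mice were at 11.06, 11.23 and 11.32 and LFD mice at 11.05, 11.47 and 11.50 as the lowest, median and highest. Every HFD_CR mouse lay above every HFD mouse, and 5 of 6 LFD mice lay above every HFD mouse as well, the exception being LFD mouse 3, which was lowest of all 17. Igfbp4 rose by 0.47 ± 0.09 in HFD_CR against HFD, a 1.39-fold difference (95% confidence interval 1.22 to 1.58, adjusted p = 0.000907). The call was lost in a test against a 1.2-fold difference (adjusted p = 0.326).

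In HFD against LFD the Igfbp4 difference was -0.20 ± 0.08 (adjusted p = 0.1004), and it passed without LFD mouse 3 (-0.27, adjusted p = 0.00819), the array with high gland, muscle and thermogenic genes. It also passed without LFD mice 3 and 6 (-0.27, adjusted p = 0.0161) and without the 4 muscle or gland arrays (-0.24, adjusted p = 0.0358). HFD_CR differed from LFD by 0.28 ± 0.09 (adjusted p = 0.0607), and by 0.34 without HFD_CR mouse 1 (adjusted p = 0.0271). Most of the adipocyte list moved with Igfbp4: 6 of its 8 genes rose in HFD_CR against HFD (7.69% of all genes). In HFD against LFD 6 fell (11.3% of all genes), but Lep rose by 0.44 ± 0.08 (adjusted p = 0.000415). In HFD_CR against LFD 1 rose and 1 fell. List means were 12.55 to 12.69 in HFD_CR, 12.29 to 12.45 in HFD and 12.54 to 12.70 in LFD. LFD mouse 3, lowest for Igfbp4, had a list mean of 12.54, above every HFD mouse. The part of adipocytes in the Igfbp4 difference was not tested. The genes most like Igfbp4 were Nnat, neuronatin (r = 0.94), Phldb1, a cytoskeletal scaffold that acts in insulin signalling of adipocytes (r = 0.94), and Sgce, epsilon-sarcoglycan (r = 0.94). Nnat and Sgce are imprinted and expressed from the paternal copy. Nnat had medians of 13.1 in HFD_CR, 12.1 in HFD and 12.4 in LFD.

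Igfbp3 (probe set 17260474), the main carrier of IGF1 in blood, which is made in fat by vessel and stromal cells, did not pass in any comparison. HFD_CR mice 1 to 5 were at 8.88, 8.82, 8.59, 9.69 and 9.59, HFD mice at 8.75, 8.90 and 9.02, and LFD mice at 8.57, 8.64 and 9.01. HFD_CR mice 4 and 5 thus stood above all 15 other mice, while mice 1 to 3 lay within the range of the other groups. The SD was 0.49 in HFD_CR, 0.09 in HFD and 0.17 in LFD. Igfbp3 differed by 0.42 ± 0.16 in HFD_CR against LFD (adjusted p = 0.110), and by 0.55 without HFD_CR mouse 3 (adjusted p = 0.0288). It differed by 0.23 ± 0.16 in HFD_CR against HFD (adjusted p = 0.379) and by 0.20 ± 0.15 in HFD against LFD (adjusted p = 0.382). The fit pools the spread of all 3 groups, so the wide HFD_CR values also entered the SE of HFD against LFD. Over 31 alternatives the lowest adjusted p of HFD against LFD was 0.0705. Of 8 endothelium markers, 0 were called in HFD_CR against either group, and their mean was 10.5 in HFD_CR mice 4 and 5, within the 10.05 to 10.61 of the other mice. Of 8 adipose progenitor and fibroblast markers, 3 fell in HFD_CR against HFD and 3 rose in HFD_CR against LFD, and their mean was 11.12 and 10.94 in HFD_CR mice 4 and 5, the lowest of that group. All-gene shares called were 19.0% in HFD_CR against HFD, 11.3% lower, and 9.08% in HFD_CR against LFD, 5.80% higher. The part of either cell type in the Igfbp3 values was not tested. The genes most like Igfbp3 were Lrrc8a, a subunit of the volume-regulated anion channel (r = 0.88), Hecw2, a ubiquitin ligase (r = 0.80), and Depp1, a FOXO target gene (r = 0.77). All 3 were highest in HFD_CR mice 4 and 5 too, so r leaned on those arrays. Lrrc8a was at 10.33 and 10.34 in them and at 9.95 to 10.11 in the other mice. Depp1 had medians of 10.3 in HFD_CR, 9.42 in HFD and 8.98 in LFD.

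Igfbp5 (probe set 17224180), the most conserved of the binding proteins and one that also binds matrix, followed Igfbp4 in sign but did not pass. It was at 11.90, 11.91, 11.79, 11.86 and 11.63 in HFD_CR mice 1 to 5, 11.38, 11.62 and 11.79 in HFD mice, and 11.65, 11.75 and 12.06 in LFD mice. HFD_CR and LFD mice overlapped widely and HFD mice reached lowest. The difference was -0.20 ± 0.09 in HFD against LFD (adjusted p = 0.1005), 0.22 ± 0.09 in HFD_CR against HFD (adjusted p = 0.0961) and 0.03 ± 0.09 in HFD_CR against LFD (adjusted p = 0.908). The first passed under 3 of 31 alternatives and the second under 2. Without HFD mouse 5 the first became -0.24 (adjusted p = 0.0492) and the second 0.26 (adjusted p = 0.0486). With array weights they were -0.27 (adjusted p = 0.0197) and 0.28 (adjusted p = 0.0109). Centring each array on the median of the genes tested, chosen after the data were seen, gave -0.23 for HFD against LFD (adjusted p = 0.0474). Igfbp5 and Igfbp2 are next to each other in the reference gene order, as are Igfbp3 and Igfbp1. Rab33a (r = 0.90), Zfp735 (r = 0.89) and Zfp641 (r = 0.84) were most like Igfbp5. Rab33a and Zfp735 lay below the array median on every array and were not shown to be above background.

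Igfbp6 (probe set 17315305), which prefers IGF2, did not pass in any comparison and was spread widely in HFD_CR and LFD. HFD_CR mice 1 to 5 were at 11.83, 11.69, 11.88, 11.54 and 11.22, HFD mice at 11.27, 11.41 and 11.52, and LFD mice at 11.20, 11.56 and 11.74. HFD_CR held both the highest value of all mice, in mouse 3, and the next to lowest, in mouse 5. HFD_CR differed from HFD by 0.22 ± 0.11 (adjusted p = 0.193), and by 0.32 without mouse 5 (adjusted p = 0.0302). HFD differed from LFD by -0.12 ± 0.10 (adjusted p = 0.435) and HFD_CR from LFD by 0.10 ± 0.11 (adjusted p = 0.679).

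Markers of mesothelium, the lining of the abdominal cavity, ranked with Igfbp6 among HFD_CR and LFD mice, but not among HFD mice. HFD_CR mice 1 and 3 had the highest marker means in their group and mouse 5 the lowest, as for Igfbp6. LFD mouse 3, the array with high gland and urothelium genes, was highest and LFD mouse 1 lowest in their group for both. HFD mouse 6 had the lowest marker mean of its group (8.74) with Igfbp6 at 11.48, and HFD mouse 4 the highest (9.38) with Igfbp6 at 11.42. The means ran from 8.99 to 9.87 in HFD_CR, 8.74 to 9.38 in HFD and 8.98 to 9.87 in LFD. Of 6 markers, 2 rose in HFD_CR against HFD, Upk3b (0.64 ± 0.18) and Upk1b (0.74 ± 0.20), and 1 fell in HFD against LFD, Upk1b (-0.55 ± 0.19). Among all genes, 7.69% rose in the former comparison and 11.3% fell in the latter. The genes most like Igfbp6 were Adgrd1, an adhesion receptor (r = 0.89), Pkhd1l1 (r = 0.87) and Lrrn4, itself on the mesothelium list (r = 0.87). Over deviations from the group means r was 0.87, 0.83 and 0.83. The part of mesothelium in the Igfbp6 values was not tested.

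Igfbp7 (probe set 17449084), a vessel-associated protein that binds IGFs weakly, ranged from 12.88 to 13.15 over all mice, near the top of the scale. HFD_CR mice 1 to 5 were at 13.01, 12.92, 12.97, 12.94 and 12.88, HFD mice at 12.98, 13.06 and 13.15, and LFD mice at 12.96, 13.04 and 13.13. HFD_CR mice lay low and overlapped both other groups. HFD_CR differed from HFD by -0.12 ± 0.04 (adjusted p = 0.0684). This difference passed under 4 of 31 alternatives, among them without HFD mouse 1 (-0.13, adjusted p = 0.0455) and with array weights (-0.14, adjusted p = 0.00685). HFD differed from LFD by 0.03 ± 0.04 (adjusted p = 0.632), a sign that turned when arrays were centred on the median of the genes tested (-0.0024). Its likest genes were Ccnd1, the cyclin of G1 (r = 0.84), Cers6, a ceramide synthase (r = 0.83), and Rnpep, an aminopeptidase (r = 0.82).

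Igfbp2 (probe set 17214106), a binding protein abundant in blood, measured 7.63, 7.31, 7.44, 7.25 and 7.15 in HFD_CR mice 1 to 5, 7.10, 7.28 and 7.59 in HFD mice, and 7.26, 7.47 and 7.77 in LFD mice. The groups overlapped throughout. The differences were -0.15 ± 0.10 in HFD against LFD, 0.02 ± 0.10 in HFD_CR against HFD and -0.13 ± 0.10 in HFD_CR against LFD, with adjusted p of 0.273, 0.929 and 0.491. A difference at so low a signal may be understated. Genes most like it were AF366264, Esp15 and Eef1a1, with r of 0.85, 0.79 and 0.77. AF366264 and Esp15 lay below the array median on every array and were not shown to be above background.

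The rest of the IGF family and its partners were counted from 4 lists chosen with earlier results of these data known. For comparison, 27.8% of all genes were called in HFD against LFD, 19.0% in HFD_CR against HFD and 9.08% in HFD_CR against LFD. Of 6 further family genes (Igf2, Igfbp1, Igfals, Igfbpl1, Kazald1 and Insrr), 0 were called in HFD against LFD, where Igfbpl1 had the smallest p (0.17 ± 0.07, adjusted p = 0.0813). Igfals, the acid-labile subunit that completes the circulating complex of IGF1 and IGFBP3, fell by 0.25 ± 0.09 in HFD_CR against HFD (adjusted p = 0.0435) and by 0.30 ± 0.09 against LFD (adjusted p = 0.0321), 1 of 6 in each. It had medians of 7.64 in HFD_CR, 7.92 in HFD and 7.96 in LFD. Igf2 was not called, and Igfbp1, Igfbpl1, Kazald1 and Insrr lay below the array median on all 17 arrays and were not shown to be above background.

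Of 10 growth hormone axis genes, 4 rose and 1 fell in HFD against LFD, and 1 rose and 3 fell in HFD_CR against HFD. Shares of all genes were 16.5% higher and 11.3% lower in the first comparison, and 7.69% higher and 11.3% lower in the second. Ghr, the growth hormone receptor, measured 11.75, 11.82 and 11.88 in HFD_CR, 11.45, 11.64 and 11.76 in HFD, and 11.83, 11.99 and 12.06 in LFD, as the lowest, median and highest. HFD mice lay below all LFD mice, and HFD_CR lay between and overlapped both. Ghr fell by 0.34 ± 0.05 in HFD against LFD (adjusted p = 6.70e-05) and rose by 0.19 ± 0.06 in HFD_CR against HFD (adjusted p = 0.0233). Socs3, a feedback inhibitor of JAK and STAT signalling, rose by 0.35 ± 0.09 in HFD (adjusted p = 0.00549) and fell by 0.40 ± 0.09 in HFD_CR against HFD (adjusted p = 0.00468). Socs2, the inhibitor most specific to growth hormone, rose by 0.40 ± 0.14 in HFD (adjusted p = 0.0353) and stood 0.45 ± 0.14 above LFD in HFD_CR (adjusted p = 0.0550). Ptpn1, a tyrosine phosphatase of the insulin and leptin receptors, fell by 0.31 ± 0.07 in HFD_CR against HFD (adjusted p = 0.00322). In HFD_CR against LFD, 0 of the 10 were called, against 9.08% of all genes.

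Of 12 genes for proteases that cut binding proteins and for their inhibitors, 4 rose and 1 fell in HFD against LFD, 1 rose and 2 fell in HFD_CR against HFD, and 3 rose in HFD_CR against LFD. The shares of all genes called in these comparisons were 27.8%, 19.0% and 9.08%. Adam12, a metalloprotease that cuts IGFBP3 and IGFBP5, measured 8.41, 8.68 and 8.78 in HFD_CR, 9.45, 9.61 and 9.74 in HFD, and 8.67, 8.71 and 8.80 in LFD. All HFD mice stood above all others. Adam12 rose by 0.87 ± 0.06 in HFD against LFD (adjusted p = 1.97e-08) and fell by 0.94 ± 0.06 in HFD_CR against HFD (adjusted p = 4.61e-07). Stc2, stanniocalcin 2, an inhibitor of the IGFBP4 protease PAPP-A, moved the other way. It measured 8.45, 8.68 and 8.90 in HFD_CR, 7.91, 8.03 and 8.27 in HFD, and 8.29, 8.55 and 8.80 in LFD, so that all HFD mice were below all others. Stc2 fell by 0.49 ± 0.09 in HFD against LFD (adjusted p = 0.000597) and rose by 0.60 ± 0.10 in HFD_CR against HFD (adjusted p = 0.000281).

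Pappa itself was not called in any comparison. Its mean signal was 7.22, below the array median on 2 of 17 arrays, so that a difference may be understated. The serine protease gene Htra1 rose by 0.44 ± 0.09 in HFD (adjusted p = 0.000616) and by 0.42 ± 0.09 in HFD_CR (adjusted p = 0.00593), both against LFD. Htra3 rose by 0.41 ± 0.10 in HFD_CR against LFD (adjusted p = 0.0141), as did Adam9, by 0.18 ± 0.05 (adjusted p = 0.0336). Ctsd, the lysosomal protease cathepsin D, fell by 0.35 ± 0.05 in HFD_CR against HFD (adjusted p = 6.45e-05).

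Genes of receptor signalling, with the insulin receptor gene Insr among them, numbered 24, of which 20 were measured. In HFD against LFD, 4 rose and 8 fell. In HFD_CR against HFD, 8 rose and 4 fell, and in HFD_CR against LFD 3 rose and 2 fell. Called among all genes were 27.8%, 19.0% and 9.08% in the same order. Irs1, the docking protein of the IGF1 and insulin receptors, was at 9.77, 10.13 and 10.30 in HFD_CR, 9.22, 9.44 and 9.73 in HFD, and 10.18, 10.48 and 10.74 in LFD. HFD mice lay below all others, and HFD_CR and LFD overlapped in part. Irs1 fell by 1.03 ± 0.10 in HFD against LFD (adjusted p = 6.28e-07), rose by 0.65 ± 0.11 in HFD_CR against HFD (adjusted p = 0.000331) and remained 0.38 ± 0.11 lower in HFD_CR than in LFD (adjusted p = 0.0356).

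Irs2, its relative, rose in HFD_CR by 0.52 ± 0.11 against HFD (adjusted p = 0.00211) and by 0.53 ± 0.11 against LFD (adjusted p = 0.00472). Pik3r1, the regulatory subunit of phosphoinositide 3-kinase, fell by 0.75 ± 0.09 in HFD (adjusted p = 2.43e-06) and by 0.54 ± 0.09 in HFD_CR (adjusted p = 0.000837), both against LFD. Foxo3, a transcription factor that AKT keeps out of the nucleus, rose by 0.46 ± 0.08 in HFD against LFD (adjusted p = 0.000201). Grb2, the adaptor to the RAS pathway, fell by 0.42 ± 0.07 in HFD_CR against HFD (adjusted p = 0.000159).

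**Figure D4:**
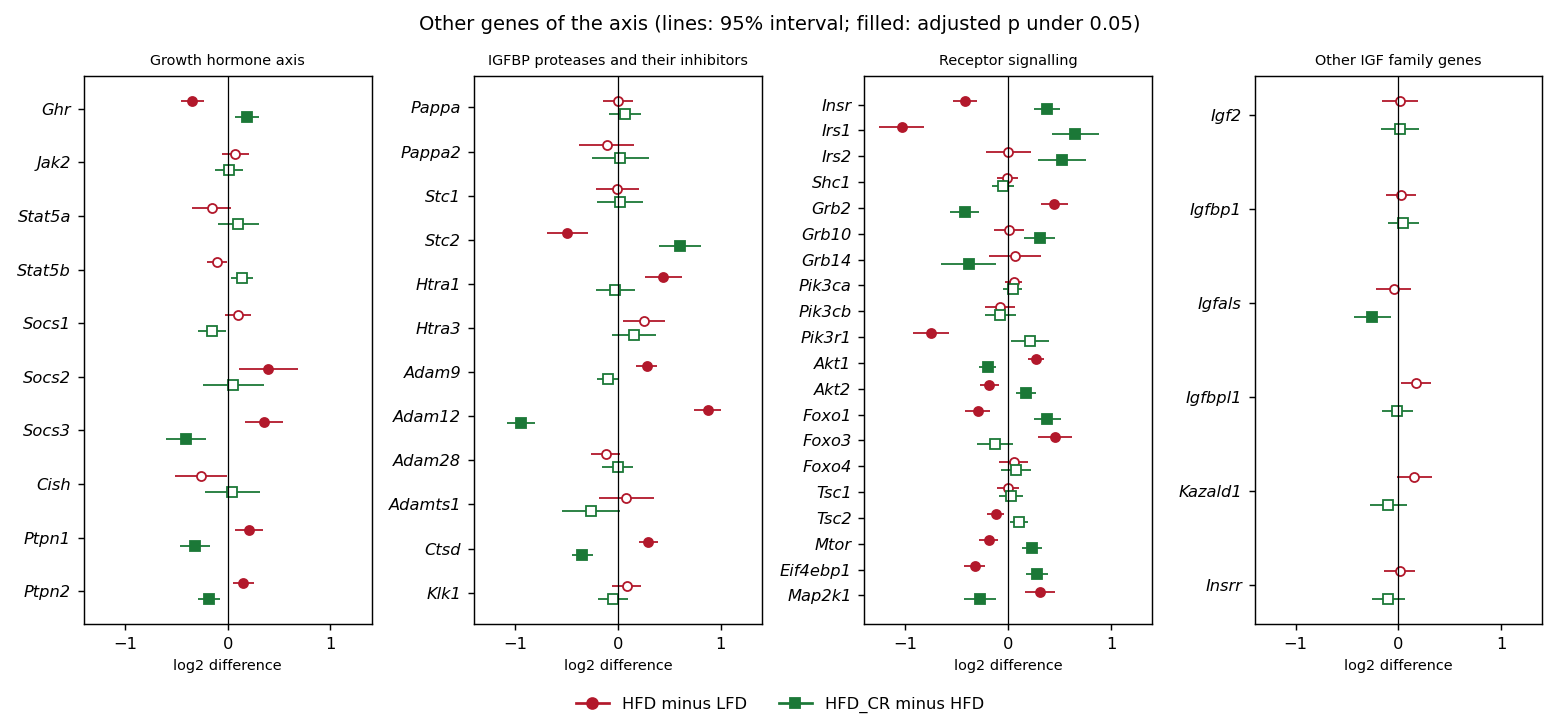
Log2 difference of each measured gene of the 4 partner lists, with circles for HFD minus LFD, squares for HFD_CR minus HFD, lines for the 95% confidence interval, and symbols filled where the adjusted p was under 0.05. Adam12 stands at 0.87 and -0.94, Stc2 at -0.49 and 0.60, and Irs1 at -1.03 and 0.65.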

How the data were processed

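Gene expression of periprostatic fat was measured in 17 mice, 1 array each. The values, 1 log2 signal per probe set, were deposited by the authors. RMA, which corrects background, normalizes arrays and summarises probes, limma and R 3.5.0 are named by the submitters' processing notes without role or order. A genome build is not given in the sources used here. Of 33793 probe sets, 23521 had 1 gene symbol in the platform annotation, 1814 several and 8458 none, and the highest probe set per gene left 22180 genes, with no filter and no rescaling.

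A mean per group was fitted jointly (lmFit, then eBayes, 14 residual degrees of freedom) using limma 3.58.1 under R 4.3.3. The threshold was a Benjamini-Hochberg adjusted p of 0.05. The procedure was tested on simulated data. Python 3.11.15 with matplotlib 3.10.9 drew the figures.

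The members, gene lists and tests were chosen with earlier results of these data known. All members are named, with up to 3 called genes per pathway list and comparison with the largest difference (or the smallest p) and the 3 genes with the highest Pearson's r to each member. Airn, Slc22a2, Mas1, Pappa, Upk3b and Upk1b were named outside this rule, after their values were seen. Alternatives numbered 31: each of 17 arrays left out, and 14 others.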

Additional observations from a re-analysis of the deposited data

Results flagged for a closer look

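Single LFD mice stood apart from their group for 2 members. Igfbp4 measured 11.05 in LFD mouse 3, the gap to the next LFD mouse at 11.42 being large for the range of the group. Igfbp3 measured 9.01 in LFD mouse 6, and the next LFD mouse was at 8.70. Such gaps were looked for in 27 groups of mice (9 genes in 3 groups), and chance alone flags about 1 in 20 groups. LFD mouse 3 carried high levels of muscle, gland and thermogenic genes, and LFD mouse 6 of thermogenic genes. Without LFD mouse 3 the Igfbp4 difference of HFD from LFD was -0.27 (adjusted p = 0.00819, limma).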

How the results depend on the processing

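Igf2r kept its call in HFD against LFD under all 31 alternatives. Calls over all genes also moved with the setting, so the member counts below are not specific to the members. They ran from 1341 to 6965 in HFD against LFD (6165 in the main fit). In HFD_CR against HFD they ran from 607 to 6144 (4213), and in HFD_CR against LFD from 162 to 2462 (2015). The setting with genes above the median level tested 11090 genes. Beside the 1 member called in HFD against LFD, there were 1 to 2 when single arrays were left out, 2 without the 4 muscle or gland arrays, 2 without LFD mice 3 and 6, 2 with arrays centred on the median of the genes tested (chosen after seeing the data), and 3 with array weights. Beside the 2 called in HFD_CR against HFD, there were 2 to 3 with single arrays left out, 4 among genes above the median level, 5 with array weights, and 0 against a 1.2-fold difference. Beside the 2 called in HFD_CR against LFD, there were 0 to 2 with single arrays left out, 0 at an adjusted p of 0.01, 0 against a 1.2-fold difference, 3 among genes above the median level, with trend and robust eBayes or with array weights (Igfbp4 added), and 1 each without the 4 arrays, without LFD mice 3 and 6, with either centring of arrays, and with only the arrays of the groups compared.

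Over all genes, testing against a 1.2-fold difference left 1341 called in HFD against LFD, 607 in HFD_CR against HFD and 162 in HFD_CR against LFD, and an adjusted p of 0.01 left 2575 in HFD_CR against HFD and 967 in HFD_CR against LFD. With single arrays left out the counts ran from 5396 to 6426, 3382 to 4601 and 1507 to 2355.

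Igfbp2 in HFD_CR against HFD turned to -0.00046 with quantile normalization applied again, -0.0296 with array weights, and ranged from -0.0465 (without HFD_CR mouse 1) to 0.0739 with single arrays left out, being below 0 also without HFD mouse 6 (-0.0253). Igfbp5 in HFD_CR against LFD ranged from -0.0017 (without LFD mouse 3) to 0.0803 with single arrays left out and was -0.0242 without the 4 arrays, and Igfbp7 in HFD against LFD turned to -0.0024 with arrays centred on the genes tested. The cause was not tested.

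Same-numbered mice deviated together by more than 0.1 in 5 of 16 pairs (correlations from -0.11 to 0.41), so the numbers were not taken to pair mice. With the mouse number as a replicate block 1 member was called in HFD_CR against LFD, Igf2r, with Igf1 at -0.18 (adjusted p = 0.0652), and Igfbp2 in HFD_CR against HFD was -0.0027. The block changed no other call among the members.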
